A study of Mus musculus with 2 samples.

Results

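The genes described here are Mir148a, Mir148b and Mir152, the mouse microRNA (miRNA) genes whose 3' arms carry the same seed. They were found in both count tables by the Ensembl identifiers that GENCODE gives these 3 symbols (ENSMUSG00000065505, ENSMUSG00000065560 and ENSMUSG00000065515), and make up 3 of the 1973 miRNA genes in the tables. The libraries are small-RNA sequencing of limb from strain B6NCrl mouse embryos of both sexes at embryonic day 10.5, with no treatment named. There is 1 group of 2 biological replicates. Replicate 1 was a pool of 69 embryos and replicate 2 a pool of 51, so the values are means over many animals and over all cell types of the limb bud. With 1 group there is no contrast between conditions. The comparisons are between the 3 genes and between the 2 libraries.

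A miRNA is cut from a hairpin precursor and guides Argonaute proteins to messenger RNAs that pair with its seed, the short stretch near its 5' end, which lowers their stability and translation. miRNAs with the same seed can bind the same target sites, so a family is often considered as a pooled dose made by several loci. The family of miR-148 and miR-152 is known for targeting the messenger RNAs of DNA methyltransferases, among them Dnmt1. Of its genes, Mir148b and Mir152 lie within Copz1 and Copz2, paralogous genes for the zeta subunits of the COPI coatomer, the coat of vesicles that move between the Golgi and the endoplasmic reticulum.

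The mature 3' sequences are shown because the shared seed defines the family and because the bases that differ let a read be placed at 1 locus. They are from RefSeq on GRCm38.p6, written 5' to 3', with the seed (bases 2 to 8) in capitals. All 3 genes matched the table.
miR-148a-3p: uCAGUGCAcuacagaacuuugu
miR-148b-3p: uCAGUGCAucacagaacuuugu
miR-152-3p: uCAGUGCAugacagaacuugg
Counted from 1 at the 5' end, miR-148b-3p differs from miR-148a-3p by C9U and U10C, with 20 of 22 bases identical. miR-152-3p differs from miR-148a-3p by C9U, U10G and U20G over the 21 bases that both have, and from miR-148b-3p by C10G and U20G. The seed and the base before it are therefore identical, and every pair differs just 3' of the seed. Among the 1738 mature sequences of the RefSeq table, 3 have this seed at bases 2 to 8, and those are the 3 shown.

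The 5' arms are less alike. They are shown, with bases 2 to 8 in capitals, because the tables count reads per hairpin and do not separate the arms.
miR-148a-5p: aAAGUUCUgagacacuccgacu
miR-148b-5p: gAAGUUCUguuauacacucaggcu
miR-152-5p: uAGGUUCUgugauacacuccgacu
The 5' arms of Mir148a and Mir148b share bases 2 to 8, and that of Mir152 has another 7-base seed. The longest run shared by the 5' arms of Mir148a and Mir152 is 11 bases, acacuccgacu at their 3' ends.

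The hairpins, with both mature arms in capitals, show how the genes differ outside the mature sequences.
Mir148a: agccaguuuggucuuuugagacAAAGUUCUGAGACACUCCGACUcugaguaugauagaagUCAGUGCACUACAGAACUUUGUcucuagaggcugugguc
Mir148b: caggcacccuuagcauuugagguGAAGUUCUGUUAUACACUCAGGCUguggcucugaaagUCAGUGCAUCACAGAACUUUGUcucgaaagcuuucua
Mir152: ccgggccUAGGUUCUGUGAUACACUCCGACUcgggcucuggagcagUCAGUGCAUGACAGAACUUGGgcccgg
The Mir148a and Mir148b hairpins are 99 and 97 bases long with a GC content of 45.5% and 45.4%, and the Mir152 hairpin is 73 bases long with 61.6%. The longest exact run shared by any pair of hairpins is 15 bases, between Mir148a and Mir148b. It is shorter than each mature sequence, so a read of a whole mature sequence matches exactly 1 of these 3 hairpins. In the 141767 GENCODE transcripts, searched on both strands, each 3' sequence was found exactly in the transcript of its own gene and in no other. The genome outside annotated transcripts was not searched.

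The 3 genes lie on different chromosomes of GRCm38 (mm10). Mir148a is on the minus strand of chromosome 6, from 51269812 to 51269910, and overlaps no other annotated gene. Its nearest protein-coding gene is Nfe2l3, 163 kb away. Mir148b is on the plus strand of chromosome 15, from 103285125 to 103285221, in intron 1 of all 4 annotated transcripts of Copz1 (103272714 to 103299868, same strand). Its hairpin starts 12411 bases after the annotated start of Copz1. Mir152 is on the plus strand of chromosome 11, from 96850393 to 96850465, within Copz2 (96849870 to 96861203, same strand). It lies in intron 1 of the 3 of 5 Copz2 transcripts that span it and overlaps no exon, and its hairpin starts 523 bases after the annotated start of Copz2. Both hosted hairpins are thus in the first intron on the strand of the host, but Mir152 lies much nearer the start.

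**Figure D1:**
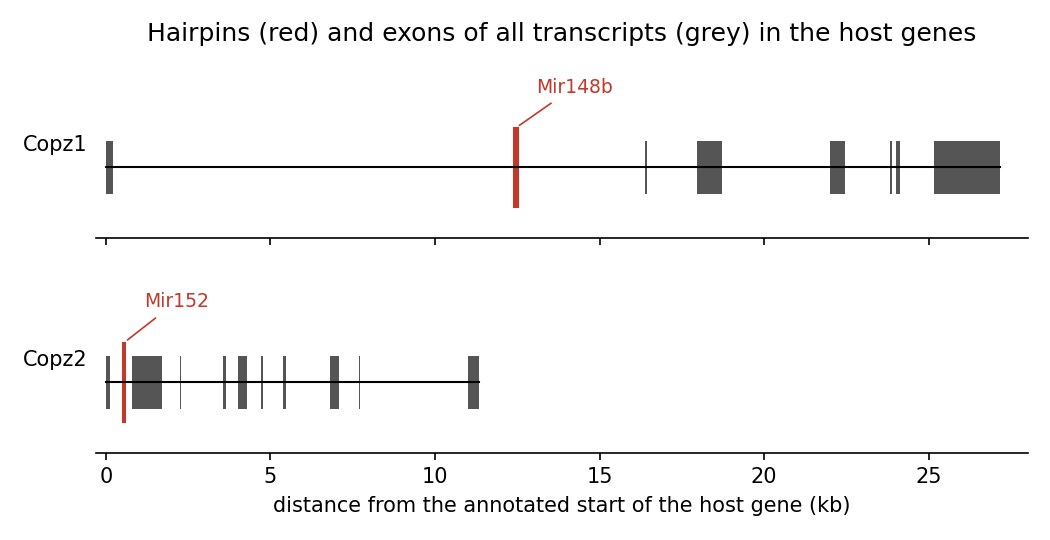
Position of Mir148b in Copz1 (top) and of Mir152 in Copz2 (bottom), drawn to scale as distance in kb from the annotated start of each host gene; grey boxes are the exons of all annotated transcripts and the red box is the hairpin, outlined for visibility. Both hairpins lie between exons, 12411 bases after the start of Copz1 and 523 bases after that of Copz2.

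The neighbourhoods resemble each other beyond the host genes, which the choice of genes did not use. Each lies near a gene of the Nfe2 group of basic leucine zipper factors, with Nfe2l3 at 163 kb from Mir148a, Nfe2l1 at 20.4 kb from Mir152 and Nfe2 at 26.7 kb from Mir148b. Genes for heterochromatin proteins also lie near all 3, with Cbx3 at 200.4 kb from Mir148a, Cbx1 at 41.8 kb from Mir152 and Cbx5 at 45.3 kb from Mir148b. The genes of the Hnrnpa group, RNA-binding proteins, lie near 2 of the 3, with Hnrnpa2b1 at 191 kb from Mir148a and Hnrnpa1 at 38.4 kb from Mir148b, and none lies within 2 Mb of Mir152. Mir148a is the one without a Copz gene within 2 Mb. The Nfe2, Cbx and Hnrnpa groups were picked after the annotation of the loci was seen.

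Mir148a was the most abundant of the 3 genes, Mir148b came next and Mir152 was lowest, in the same order in both libraries. Levels are sense counts per 1000000 sense counts in miRNA genes (CPM). No length scaling was applied. Mir148a had 1928 counts in replicate 1 and 1721 in replicate 2, which are 538 CPM (exact binomial 95% interval 515 to 563) and 481 CPM (459 to 504). Its mean was 510 ± 40.4 CPM (SD, n = 2), rank 121 of 1973 genes. Mir148b, the gene in Copz1, had 600 and 749 counts, or 168 CPM (154 to 181) and 209 CPM (195 to 225). Its mean was 188 ± 29.6 CPM (SD, n = 2), rank 159. Mir152, the gene in Copz2, had 116 and 179 counts, or 32.4 CPM (26.8 to 38.8) and 50.05 CPM (43.0 to 57.9). Its mean was 41.2 ± 12.5 CPM (SD, n = 2), rank 228. The ranges of the 3 genes over the libraries did not overlap. All 3 members had at least 10 counts in both libraries, as did 17.6% of all genes. The median of those genes was 136 CPM, so Mir148a and Mir148b lay above it and Mir152 below. No antisense read was counted at any of the 3 loci in either library. The intervals cover the counting error of reads within a library only. PCR copies of a molecule are counted as separate reads, so the intervals may be too narrow.

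**Figure D2:**
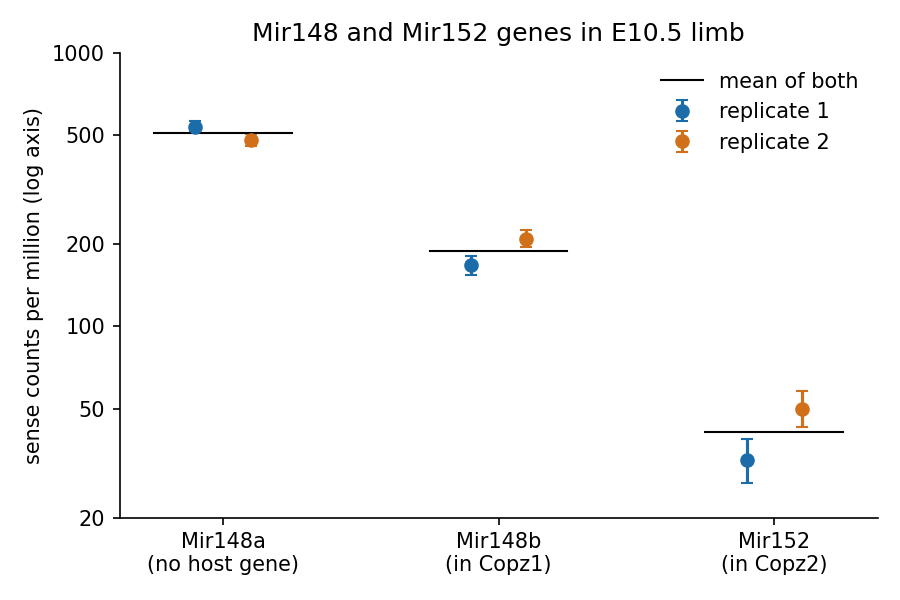
Sense CPM on a log axis for Mir148a (no host gene), Mir148b (in Copz1) and Mir152 (in Copz2) in replicate 1 (blue) and replicate 2 (orange), with exact binomial 95% intervals as bars and the mean of the 2 libraries as a black line. The genes step down from 510 to 188 to 41.2 CPM on average, and Mir148a is the one whose orange point lies below the blue one.

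Ratios between the genes within a library do not depend on scaling. Mir148a had 3.21 times the counts of Mir148b in replicate 1 and 2.30 times in replicate 2, log2 ratios of 1.68 (1.55 to 1.82) and 1.20 (1.08 to 1.33). Over Mir152 it was 16.6-fold and 9.61-fold higher, log2 ratios of 4.04 (3.78 to 4.34) and 3.26 (3.04 to 3.50). Of the hosted genes, Mir148b in Copz1 was 5.17-fold and 4.18-fold above Mir152 in Copz2, log2 ratios of 2.36 (2.08 to 2.67) and 2.06 (1.83 to 2.31). The mean log2 ratios were 1.44 ± 0.34 for Mir148a over Mir148b, 3.65 ± 0.56 for Mir148a over Mir152 and 2.21 ± 0.21 for Mir148b over Mir152 (SD, n = 2). Each was several times its SD. With 2 libraries a two-sided exact sign-flip test cannot give a p below 0.5, so no p is given. A capture bias between the 3 sequences in library preparation was not tested. Copz1 and Copz2 messenger RNA was not analysed here, since the tables hold miRNA genes.

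The makeup of the family differed between the libraries, while the size of the difference in its total depended on the scaling. The summed counts were 2644 in replicate 1 and 2649 in replicate 2, 738 and 741 CPM, or 0.0738% (0.0710 to 0.0767) and 0.0741% (0.0713 to 0.0769) of the sense counts. The log2 ratio of the totals, replicate 2 minus replicate 1, was 0.0048 by CPM, 0.29 with TMM (1.23-fold) and 0.28 with DESeq2 size factors, scalings described with the gene ratios. Of all reads of the library, genes or not, the family made up 0.0263% in replicate 1 and 0.0367% in replicate 2. The equal totals thus hold for CPM alone among these scalings. All reads include unmapped ones, which were 32.3% in replicate 1 and 18.6% in replicate 2. Mir148a gave 72.9% (71.2 to 74.6) of the family's counts in replicate 1 and 65.0% (63.1 to 66.8) in replicate 2. Mir148b gave 22.7% (21.1 to 24.3) and 28.3% (26.6 to 30.0). Mir152 gave 4.39% (3.64 to 5.24) and 6.76% (5.83 to 7.78). For each gene the intervals of the libraries did not overlap. The share of Mir148a was thus lower, and the shares of both hosted genes higher, in replicate 2 beyond the counting error of reads. The shares add up to the whole family, so they are not separate results. By CPM, the counting interval of the log2 ratio between libraries did not hold 0 for 84.8% of 250 genes. These are the genes with a mean count of at least 100. Differences beyond counting error were thus common between these libraries and do not set the family apart.

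Between the libraries, Mir148b and Mir152 were higher in replicate 2, and the direction for Mir148a depended on the scaling. The log2 CPM ratio, replicate 2 minus replicate 1 with a prior count of 1, was 0.32 (0.17 to 0.48) for Mir148b and 0.62 (0.28 to 0.98) for Mir152. For Mir148a it was -0.16 (-0.26 to -0.07), and 0.13 with TMM scaling and 0.11 with DESeq2 size factors. TMM moved all ratios by 0.29. Over 250 genes, those with a mean count of at least 100, the median ratio was -0.27 with an SD of 0.66. Relative to that median the ratios were 0.11 for Mir148a, 0.59 for Mir148b and 0.89 for Mir152. Of these 250 genes, 12 had a higher ratio than Mir152, 31 a higher one than Mir148b and 101 a higher one than Mir148a. None of the 3 members passed 2-fold, against 10.8% of the 250 genes. Of these, 3 (1.20%) were higher and 24 (9.60%) lower in replicate 2, and with TMM 6 were higher and 14 lower. The counting interval of the ratio did not hold 0 for 3 of 3 members, as for 84.8% of the 250 genes. Mir148b and Mir152 were on the higher side, as were 60 genes (24.0%), and Mir148a was on the lower side, as were 60.8%. With TMM the split of the 250 genes was 100 higher and 90 lower. The 3 ratios were smaller in size than the SD over the 250 genes. Relative to the median, that of Mir152 was larger than the SD.

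**Figure D3:**
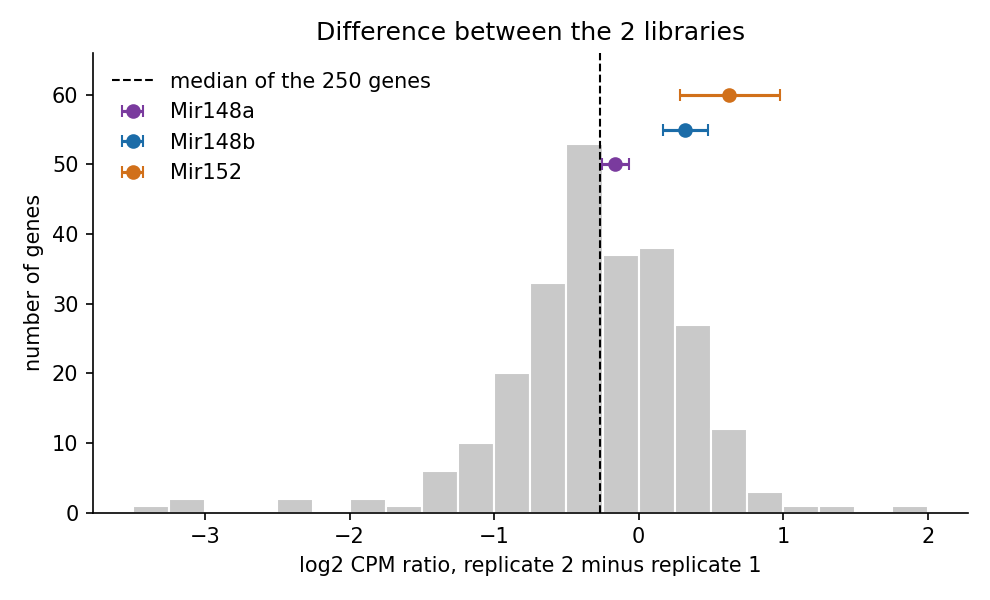
Histogram of the log2 CPM ratio (replicate 2 minus replicate 1) for the 250 miRNA genes with a mean count of at least 100, with their median as a dashed line; coloured points with exact binomial 95% bars mark the 3 genes, at heights that carry no value. All 3 points lie to the right of the median of -0.27, with Mir152 farthest at 0.62.

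Some marker lists of cell types and tissues, not all of them of the limb bud, also differed between the libraries. In bulk tissue fewer cells of a type and less RNA per cell cannot be told apart. Detected means at least 10 counts in both libraries, which 17.6% of all genes had. The labelled tissue carried its Hox-cluster miRNA genes, with 6 of 6 detected at a summed 187171 CPM in replicate 1 and 170106 CPM in replicate 2. The mesenchyme genes, 5 of 5 detected, summed to 22969 and 27955 CPM, and 5 of 5 were higher in replicate 2 by CPM. Among them Mir199a-1, Mir199a-2 and Mir199b are related genes, and reads that match more than 1 of them went to none. Their counts are of uniquely placed reads, and the 5 genes may not be separate markers. Higher by CPM were 3 of 6 Hox-cluster, 0 of 6 epithelium, 0 of 3 erythroid, 0 of 3 leukocyte and 1 of 6 liver, gut and pancreas genes. These tallies count any log2 ratio above 0. Over the 250 genes with a mean count of at least 100, the median ratio was -0.27 and the upper quartile 0.12, so most were lower by CPM. By the stricter measure of a counting interval on the higher side, 24.0% of the 250 were higher. The muscle genes, 3 of 4 detected, summed to 77.9 and 131 CPM, and 2 of 4 were higher in replicate 2. Mir206 went from 96 to 350 counts and Mir133b from 4 to 25. Mir208a went from 41 to 24 and Mir208b from 138 to 68, so the sum does not show a rise of the whole list. The epithelium genes, 6 of 6 detected, summed to 11149 and 8888 CPM, Mir126a of endothelium had 26707 and 23683 CPM, and the erythroid genes, 3 of 3 detected, summed to 479.9 and 268.7 CPM. The leukocyte genes summed to 731 and 611 CPM, with 2 of 3 detected and Mir142 not analysed here. The liver, gut and pancreas genes, 5 of 6 detected, summed to 1232 and 1060 CPM, and Mir216a had 1 and 0 counts. The log2 ratios of the sums, replicate 2 minus replicate 1, were 0.28 by CPM and 0.57 with TMM for mesenchyme, 0.75 and 1.03 for muscle, and -0.84 and -0.55 for erythroid. For epithelium the values were -0.33 and -0.04. The Hox-cluster, endothelium, leukocyte, and liver, gut and pancreas sums were lower in replicate 2 by CPM (-0.14, -0.17, -0.26 and -0.22) and higher with TMM (0.15, 0.12, 0.03 and 0.07), so their direction depended on the scaling. The part of these differences in the ratios of Mir148a, Mir148b and Mir152 was not tested.

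By uniquely placed reads, the genes nearest in level were Mir155 and Mir339 to Mir148a, Mir301b and Mir125b-2 to Mir148b, and Mir138-1 and Mir196a-1 to Mir152. Likeness was the sum over the 2 libraries of the absolute differences in log2 CPM. Mir301b was the closest of all, with 589 and 748 counts against 600 and 749 for Mir148b, a summed difference of 0.029. Mir155, a gene known from leukocytes, had 1891 and 1616 counts against 1928 and 1721 for Mir148a, a summed difference of 0.12. Mir339 had 1826 and 1827 counts, 0.16 from Mir148a. For Mir152 the nearest, Mir138-1, had 116 and 142 counts, a summed difference of 0.33. Over 2 libraries this measure describes the level of uniquely placed reads and no more. Mir125b-2 and Mir138-1 have namesakes, Mir125b-1 and Mir138-2, and the mature sequences of these genes were not compared here. Mir196a-1 shares its mature sequence with Mir196a-2. Reads that match several loci went to none, so the counts of such genes may lie below their level.

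The 7 bases of the seed also open the mature miRNAs of Mir130a, Mir130b and Mir301, shifted by 1 position, at bases 1 to 7 in place of 2 to 8. They are shown with those bases in capitals for comparison with the 3' sequences of the Mir148 genes.
miR-130a-3p: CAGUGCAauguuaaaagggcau
miR-130b-3p: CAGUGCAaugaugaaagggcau
miR-301a-3p: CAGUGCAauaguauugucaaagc
A shift by 1 base gives another seed, and these miRNAs count as a separate family. Mir301b was listed with these genes by its name, and its sequence was not checked here. The 4 listed genes, Mir130a, Mir130b, Mir301 and Mir301b, summed to 29397 and 32659 CPM in replicates 1 and 2, 39.8-fold and 44.1-fold the total of Mir148a, Mir148b and Mir152. The log2 ratio was 5.39 ± 0.10 (SD, n = 2). Mir130a had 20106 ± 1321 CPM (SD, n = 2) and Mir301b had 187 ± 31.6 CPM (SD, n = 2), so the lowest gene of that list lay at the level of Mir148b. RefSeq lists 7 mature sequences with these bases at 1 to 7. Of the other genes that encode them, chosen after their values were seen, Mir130c, Mir6341 and Mir6389 had no count in either library. For uniquely placed reads, no count sets an upper limit of 3 counts, or 0.838 CPM in the first library and 0.839 CPM in the second, for counting error alone.

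The Hox genes are clustered transcription factor genes that give positional identity along the trunk and the limbs, and their clusters hold miRNA genes. Those on the chromosomes of the family were mostly far more abundant than the family gene of the same chromosome. Mir196b of the Hoxa cluster, 960.2 kb from Mir148a, had 100.2 times its counts in replicate 1 and 154 times in replicate 2, a log2 ratio of 6.96 ± 0.44 (SD, n = 2). Mir10a of the Hoxb cluster, 533 kb from Mir152, had 1312 and 686 times its counts, a log2 ratio of 9.89 ± 0.66. Mir615 of the Hoxc cluster, 270.1 kb from Mir148b, had 31.8 and 17.0 times its counts, a log2 ratio of 4.54 ± 0.64. Mir196a-1 of the Hoxb cluster was the exception, with 1.16 and 0.832 times the counts of Mir152, so their order differed between the libraries. Its mature sequence is also that of Mir196a-2 in the Hoxc cluster, which had 10.5 and 10.4 times the counts of Mir148b. Reads that match both Mir196a loci went to neither, so the counts of both are uncertain.

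The Mir29 genes are known to target the messenger RNAs of the de novo DNA methyltransferases. Of these genes, 2 of 4 had at least 10 counts in both libraries, as did 17.6% of all genes. Mir29c had 144 and 130 counts, 38.3 ± 2.73 CPM (SD, n = 2), close to Mir152 in mean level. Mir29a had 42 and 40 counts. Mir29b-1 (0 and 1 counts) and Mir29b-2 (4 and 1 counts) share a mature sequence, so their low counts set no limit on it. The 4 genes together had 0.0719 and 0.0649 times the counts of Mir148a, Mir148b and Mir152 together in uniquely placed reads.

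**Figure D4:**
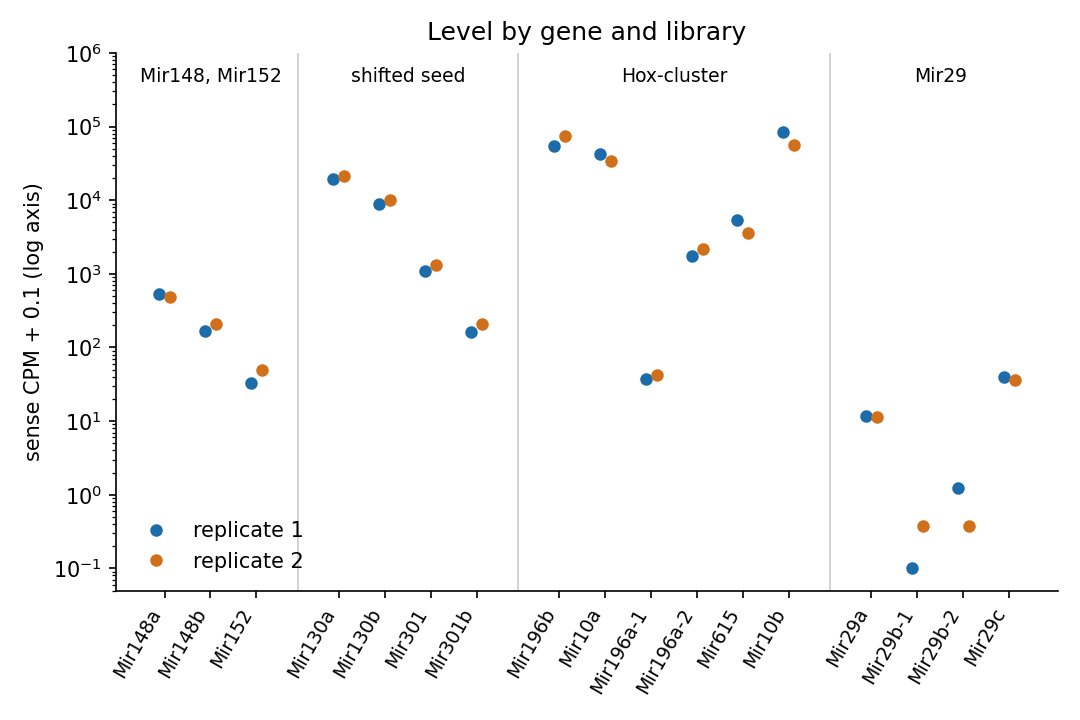
Sense CPM on a log axis, with 0.1 CPM added so that a count of 0 can be drawn, for Mir148a, Mir148b and Mir152, the genes listed for the shifted seed (the sequence of Mir301b was not checked), the miRNA genes of the Hox clusters and the Mir29 genes, in replicate 1 (blue) and replicate 2 (orange). Most Hox-cluster genes and Mir130a lie far above the 3 genes at left, while Mir301b lies at the level of Mir148b and Mir29c and Mir196a-1 near that of Mir152.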

How the data were processed

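Each library has 1 deposited table of raw counts per miRNA gene, made on mm10 with the GENCODE M4 annotation, per the deposited readme texts. Which aligner, counting program and trimming were used is not given in the sources used here. By their values, the columns hold both strands, sense and antisense, and 64.4% and 50.5% of reads sat in the 4 rows without a gene, 21.9% and 25.4% of all reads as multimapping. These rows were left out. Sense counts in genes totalled 3581672 and 3576482.

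Identifiers were matched without version to GENCODE M21 (GRCm38), where 1894 of 1973 had a symbol. CPM used the sense totals. Intervals are exact binomial (95%). The alternatives were TMM (edgeR 4.0.16), DESeq2 1.42.0 size factors, both strands, count filters, prior counts and single libraries. The spread between libraries, edgeR's common dispersion over 348 genes, was a biological coefficient of variation of 0.301. Python 3.11.15, scipy 1.17.1 and R 4.3.3 were used. The TMM code was run on simulated counts with counting error alone and as many genes raised as lowered. These libraries differ from that setting, so the run does not bear on the choice of scaling. The genes named are the 3 members, the 2 nearest in level to each, and genes of fixed lists. Members and lists were chosen with earlier results of these data known.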

Additional observations from a re-analysis of the deposited data

How the results depend on the processing

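Across the scalings, filters and prior counts run, Mir148a stayed above Mir148b and Mir148b above Mir152. This order could not have come out otherwise, so it is no test of the processing. In each library the counts fall from Mir148a to Mir148b to Mir152. A scaling factor or prior count common to all genes of a library keeps that order. The filters leave the counts of these genes unchanged. Ratios within a library do not change with scaling, and with no antisense reads they do not change with both strands. With 2 libraries, a mean always lies within their SD of either one. Without replicate 1 or 2, Mir148a was at 481 or 538 CPM, Mir148b at 209 or 168, Mir152 at 50.05 or 32.4. The log2 ratio of Mir148a between libraries changed sign with TMM (0.13) and DESeq2 size factors (0.11), and that of Mir148b moved from 0.32 to 0.61 and 0.60; these scalings shift every gene alike. The family share of 0.0739% became 0.0743% with TMM, 0.0743% with DESeq2, 0.0725% with both strands and 0.0315% of all reads. In comparisons added after seeing the data, the log2 ratio of the family total between libraries was 0.0048 by CPM, 0.29 with TMM, 0.28 with DESeq2 and 0.48 as a share of all reads. Marker sums that changed sign were, with TMM and DESeq2, Hox-cluster (0.15 and 0.14), Mir126a (0.12 and 0.10), leukocyte (0.031 and 0.018) and liver, gut and pancreas (0.072 and 0.059). Genes over 2-fold went from 27 of 250 to 54 of 360 at a mean count of at least 10. Of 77 planned values, 26 were fixed by their construction, 14 with 1 library left out and 12 as within-library ratios. Of the other 51, 42 kept direction and stayed within set limits. The limit was the SD over the libraries for levels, ratios within a library and the family share. For ratios between libraries it was the counting interval of the gene, and for numbers of genes it was 1.5 times. With TMM the ratio of Mir152 went from 0.62 to 0.91, within its wide interval, while the like shift of Mir148b left its narrower one. Some of these 42 could hardly move. TMM and DESeq2 barely change a mean over both libraries, and the prior counts are small beside the counts of the members. A ratio between libraries has no value without one of them. No paired analysis was possible because there is 1 group. Mir152, with 116 and 179 counts, has the widest counting intervals.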
